A study of Mus musculus with 3 samples.

Results

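Gene deserts are long intervals without protein-coding genes. The H3K27ac regions described here lie more than 100 kb from the body of every protein-coding gene and are less than 15 kb wide. They were found by merging the overlapping autosomal rows of 2 peak lists, 1 from untreated and 1 from post-caerulein pancreatic spheroids. Of 41416 merged regions, 40446 were under 15 kb and 2689 of these (6.65%) met the distance rule. A region with rows of both lists is called shared, and a region with rows of 1 list only is called untreated alone or post-caerulein alone.

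Pancreatic epithelial spheroids are three-dimensional cultures, grown here from wild-type C57BL/6J mice that were untreated or had received caerulein, a peptide like cholecystokinin that induces pancreatitis in mice. The series has 3 libraries, namely H3K27ac for either condition and an input for the untreated one. Neither dose, nor time after treatment, nor age, nor number of mice is given in the sources used here. With a single H3K27ac library per condition, differences between the lists have no replicate check and carry no p-value. In both lists a row lay within 1 kb of an end of all 10 duct markers examined, among them Krt19, Sox9 and Cftr, whereas 8 of 9 acinar, 7 of 7 endocrine, 7 of 7 mesenchymal and 5 of 5 endothelial markers had none in either. Of 5 immune markers, 2 had a marked end in both lists and 1 in the post-caerulein list alone. The contribution of other cells to the regions was not tested.

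Acetylation of lysine 27 on histone H3 is placed by the acetyltransferases p300 and CBP and marks active promoters and enhancers. Enhancers are stretches of DNA that bind transcription factors and raise the transcription of a gene on the same chromosome, sometimes from very far away. Gene deserts beside developmental and growth regulators, such as those around Myc, Sox9 and the Klf genes, are known to hold many such enhancers. They also hold genes for long noncoding RNAs (lncRNAs) and microRNAs, which are short RNAs that repress messenger RNAs through pairing of their seed, bases 2 to 8.

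Several microRNA genes of the deserts lay at or near the regions. The mature 5p strands of these genes are shown because the regions over or beside them are described below, with the seed in capitals (RefSeq, GRCm38.p6).
miR-205-5p: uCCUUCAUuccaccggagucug
miR-802-5p: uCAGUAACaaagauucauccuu
miR-99a-5p: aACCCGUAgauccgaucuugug
miR-100-5p: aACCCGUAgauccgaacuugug
let-7c-5p: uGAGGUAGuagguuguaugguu
miR-125b-5p: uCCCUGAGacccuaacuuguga
The mature strands of miR-99a and miR-100 share the seed ACCCGUA. The sequence of miR-125b-5p is the same from both of its genes, Mir125b-1 (chr9:41581926-41582002) and Mir125b-2 (chr16:77646273-77646343). The other genes lie at chr1:193507463-193507530 (Mir205), chr16:93369720-93369816 (Mir802), chr16:77598936-77599000 (Mir99a), chr9:41531425-41531504 (Mir100) and chr16:77599657-77599750 (Mirlet7c-1).

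Sequence at the regions themselves was read only where RefSeq places the start of a lncRNA under one, as 300 bases from 250 before to 50 after the start. The windows below belong to the host genes of 3 of the microRNA loci and to the starts under an untreated-alone and a post-caerulein-alone region. Capitals mark CG dinucleotides, the sites of DNA methylation in mammals. The Mir205hg window (chr1:193510161-193510460, minus strand) lay in a shared region.
Mir205hg: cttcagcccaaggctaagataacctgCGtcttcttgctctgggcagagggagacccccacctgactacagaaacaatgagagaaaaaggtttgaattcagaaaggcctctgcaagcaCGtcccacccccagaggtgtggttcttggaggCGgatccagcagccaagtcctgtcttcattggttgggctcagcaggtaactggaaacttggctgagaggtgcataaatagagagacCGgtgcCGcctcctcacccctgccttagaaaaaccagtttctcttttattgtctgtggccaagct
The Mir99ahg window (chr16:77329078-77329377, plus strand) and the Mir100hg window (chr9:41474643-41474942, plus strand) also lay in shared regions.
Mir99ahg: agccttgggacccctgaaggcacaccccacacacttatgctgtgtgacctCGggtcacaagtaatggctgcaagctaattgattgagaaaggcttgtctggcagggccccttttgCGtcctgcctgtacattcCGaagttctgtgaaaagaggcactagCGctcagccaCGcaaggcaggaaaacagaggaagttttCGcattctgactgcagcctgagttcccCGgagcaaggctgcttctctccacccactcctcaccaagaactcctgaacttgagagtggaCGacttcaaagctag
Mir100hg: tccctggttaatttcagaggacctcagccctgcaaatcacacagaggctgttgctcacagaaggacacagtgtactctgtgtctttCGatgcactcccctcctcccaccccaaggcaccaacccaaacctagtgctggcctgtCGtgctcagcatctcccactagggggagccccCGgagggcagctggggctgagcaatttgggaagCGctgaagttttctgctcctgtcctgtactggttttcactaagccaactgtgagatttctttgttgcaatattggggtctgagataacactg
The start of the lncRNA 3110009F21Rik (chr12:110158024-110158323, minus strand) lay under a post-caerulein-alone region between Rtl1 and Dio3, and that of Gm34297 (chr10:98537238-98537537, plus strand) under an untreated-alone region between Ccer1 and Atp2b1.
3110009F21Rik: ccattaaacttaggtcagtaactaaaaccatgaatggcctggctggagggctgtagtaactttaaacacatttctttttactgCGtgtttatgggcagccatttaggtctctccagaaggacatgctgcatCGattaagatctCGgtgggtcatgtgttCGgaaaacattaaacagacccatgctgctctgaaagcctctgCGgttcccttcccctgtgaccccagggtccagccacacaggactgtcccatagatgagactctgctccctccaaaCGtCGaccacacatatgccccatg
Gm34297: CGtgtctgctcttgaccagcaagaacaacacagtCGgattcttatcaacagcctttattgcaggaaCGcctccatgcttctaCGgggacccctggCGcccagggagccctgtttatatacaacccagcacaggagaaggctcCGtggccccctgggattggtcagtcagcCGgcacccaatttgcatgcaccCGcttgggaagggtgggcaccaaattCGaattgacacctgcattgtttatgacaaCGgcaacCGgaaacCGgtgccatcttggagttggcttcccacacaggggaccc
The window of Gm34297 held 12 CG dinucleotides and that of 3110009F21Rik 7, against 8, 5 and 4 at Mir99ahg, Mir205hg and Mir100hg.

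Most gene-desert regions were shared, but a larger part than elsewhere was found in 1 list alone. Of the 2689 regions, 1535 were shared, 680 were post-caerulein alone and 474 were untreated alone. Regions of 1 list made up 42.92% (exact Clopper-Pearson 95% interval 41.03 to 44.81, counting error over regions only), against 29.4% of all regions under 15 kb. Post-caerulein-alone regions were 25.29% (23.65 to 26.98; 16.5% of all regions under 15 kb) and untreated-alone regions 17.63% (16.20 to 19.12; 12.9%). Among regions of 1 list, the post-caerulein list held 58.93% (56.02 to 61.78) in the deserts and 55.79% (54.85 to 56.73) of those nearer to genes. The share of 1-list regions was lowest inside gene bodies, at 25.87%. It was 35.7% up to 10 kb from a gene, 33.81% at 10 to 50 kb and 36.01% at 50 to 100 kb.

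**Figure D1:**
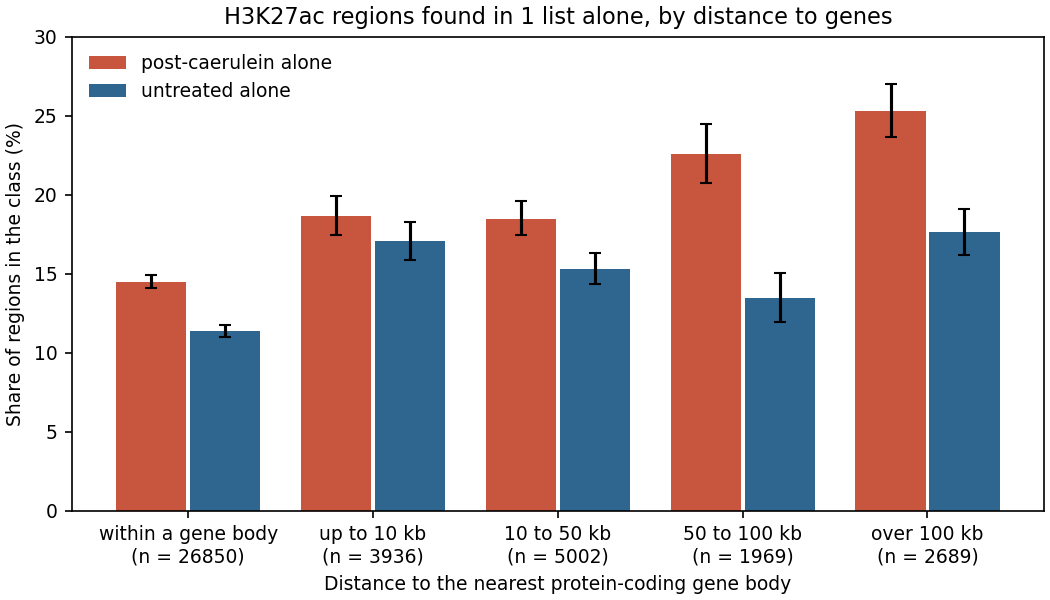
Share of H3K27ac regions under 15 kb found in the post-caerulein list alone (red) and in the untreated list alone (blue), in percent, by distance from the nearest protein-coding gene body, with exact 95% intervals over regions. The post-caerulein share was 14.51% inside gene bodies and 25.29% beyond 100 kb, and the untreated share was 11.36% and 17.63%.

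Width and score moved with these shares. The deposited score, whose definition no file header gives, was used for ranks and limits within a list. Where scores of both lists are printed for a region, each belongs to the scale of its own list. They do not measure a change between the lists, whose median scores were 686.995 (untreated) and 527.99 (post-caerulein). Post-caerulein-alone regions had a median width of 1446 bp and untreated-alone regions 1555.5 bp, against 3095 bp for shared ones, and 71.32% and 61.39% of them lay in the lowest of 4 equal score classes of their list. The 1-list regions nearer to genes were similar, with median widths of 1470 and 1540 bp and 72.86% and 69.54% in the lowest class. The width of a shared region spans the rows of both lists, and its rank is the higher one of both. Shared regions are thus wider and higher in rank partly by construction, and the bins and weighting below use these same measures. The desert regions as a whole were narrower than regions nearer to genes, with medians of 2222 and 2531 bp. When the nearer regions were weighted to the same widths and score ranks, their 1-list share was 36.97%, so that the difference fell from 14.4 to 5.9 percentage points. Within each bin the desert share was still the higher one. Between 1.5 and 2.5 kb wide it was 50.24% (46.81 to 53.66) against 34.8%, and in the third score class 9.54% (7.287 to 12.21) against 4.124%. In the top score class it was 0.556%, which rests on 2 regions, against 0.305%.

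**Figure D2:**
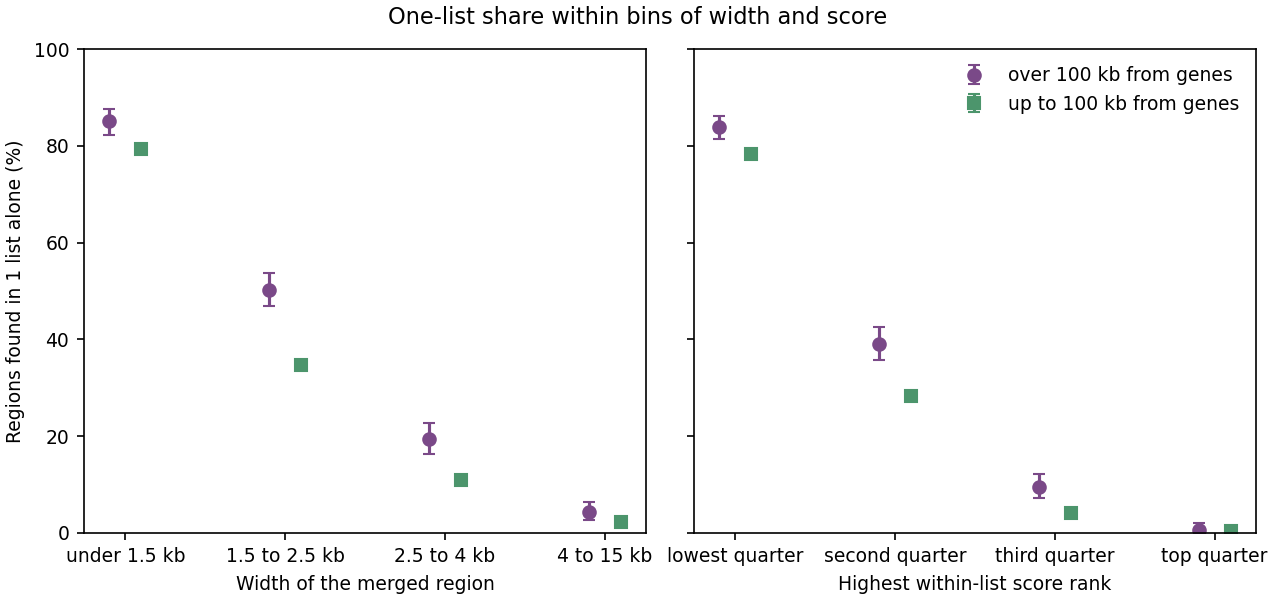
Percent of regions found in 1 list alone within bins of region width (left) and of the highest within-list score rank (right), for regions over 100 kb (circles) and up to 100 kb (squares) from protein-coding genes, with exact 95% intervals. The share fell from 85.09% of desert regions under 1.5 kb to 4.228% of those of 4 to 15 kb, and the desert share lay above the nearer one in each bin. Width and rank of shared regions were taken over both lists, so the fall is partly built into these measures.

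Few 1-list regions were strong. A score at or above the median of their list was reached by 21 of 680 post-caerulein-alone regions (3.088%) and by 37 of 474 untreated-alone regions (7.806%), and in that range the post-caerulein list held only 36.2% of them. Nearer to genes the shares were 2.601% and 5.386%, so weak 1-list regions are not particular to the deserts. Some 1-list regions were also close to a row of the other list: such a row lay within 1 kb of 77 post-caerulein-alone regions (11.32%, 9.04 to 13.95) and 27 untreated-alone regions (5.696%, 3.787 to 8.18). The median distance to the other list was 13.2 kb and 31.7 kb.

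Within the deserts the share rose further with distance. The 1-list share was 37.67% (34.5 to 40.91) of 908 regions at 100 to 150 kb, 45.96% (41.85 to 50.11) of 581 at 200 to 300 kb and 62.5% (45.8 to 77.27) of 40 regions beyond 1000 kb. The median score rank fell over the same classes, from 41.0 to 36.9 and 27.6, and its part in the rise was not tested. The post-caerulein part of the 1-list regions was 64.62% (59.3 to 69.69) at 100 to 150 kb, 49.48% (42.2 to 56.77) at 300 to 500 kb, 50.0% at 500 to 1000 kb and 60.0% (38.67 to 78.87) beyond 1000 kb. The region farthest from any protein-coding gene lay 2041290 bp from Olfm4, an intestinal stem cell marker, was untreated alone and had a score of 120.08. At the limits of the rule, the nearest region kept lay 100096 bp from Klf6 and the nearest one left out 99998 bp from Adcy1. The widest region kept was 14652 bp and the narrowest desert domain left out 15027 bp.

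Shared desert regions were on the whole covered over a slightly greater length after caerulein. Covered length is the number of base pairs of a region under rows of a list. Its median was 2827 bp after caerulein and 2539 bp in untreated spheroids, and 952 of 1535 regions (62.02%, 59.54 to 64.46) were covered over more bases after caerulein, against 55.45% of shared regions nearer to genes. The median log2 ratio of post-caerulein to untreated covered length was 0.10 in the deserts and 0.03 nearer to genes. Coverage at least 2-fold longer after caerulein was found for 78 regions (5.081%, 4.037 to 6.302; 2.80% of all shared regions), and at least 2-fold longer without treatment for 47 (3.062%, 2.258 to 4.051; 2.00%).

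The regions were gathered in a small part of the desert sequence. The autosomes held 1393 stretches, each a maximal interval more than 100 kb from every protein-coding gene, of 679.7 Mb in all. A stretch is named here by its flanking genes. Members were found in 575 stretches (41.3%), and 75 stretches with at least 10 regions held 1222 of them (45.5%) in 8.1% of the desert length. Another 181 stretches held a single region. Long stretches were not always rich: of 197 stretches over 1 Mb, 77 were empty and 19 held at least 10 regions. The 5 longest empty stretches were those of Cntnap5b to Cdh20 (4077.7 kb), Tenm3 to Aga, Lrrc4c to Iftap, Dsel to Cntnap5a and Pcdh7 to G6pd2 (3475.6 kb), flanked on 1 side or both by genes of neuronal or cell adhesion proteins. Whether the flanks of long stretches with regions differ from these was not tested. By chromosome the density ran from 2.29 regions per Mb of desert on chromosome 7 to 9.49 on chromosome 13, which held 320 regions.

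Genes beside rich deserts were more often marked themselves. A flanking gene had a row within 1 kb of an end in both lists for 96 of 148 genes beside stretches with at least 10 regions (64.86%, 56.6 to 72.52), for 36.41% (33.96 to 38.91) of 1486 genes beside empty stretches, and for 54.45% of all 20665 genes. Beside stretches with 1 to 9 regions it was 53.26% (50.0 to 56.49) of 937 genes, near the share of all genes. Developmental regulators were listed for known neighbouring deserts, and this list and those below were chosen with earlier results of these data known. Neither their place beside a stretch nor its number of regions is thus a finding. Of 67 annotated ones, 62 flanked a stretch, 47 a stretch with regions and 15 a stretch with at least 10. Of all 2374 flanking genes, 45.2% had regions in a stretch and 6.2% at least 10. Stretch length was not taken into account, and these shares were not tested. The 15 were Sox4, Foxa2, Id2, Myc, Klf4, Klf5, Klf12, Zeb2, Runx1, Bcl6, Hes1, Efnb2, Sall1, Zfp703 and Ets1, where Klf5 and Klf12 flank the same stretch. Of the 67, 24 had a marked end in both lists and 41 in neither, among them Klf12, Zeb2, Runx1 and Ets1. Of all protein-coding genes 11.5% flanked a stretch. Of 24 duct and progenitor transcription factors, 13 flanked a stretch and 4 (Foxa2, Klf5, Sox4 and Hes1) a stretch with at least 10 regions. Of 35 growth factor and immediate early response genes, 14 flanked a stretch and 5 (Myc, Klf6, Klf4, Dusp4 and Phlda1) one of at least 10. Of 9 acinar transcription factors 3 flanked a stretch, with 4 regions in all, and of 27 cytokine and inflammatory genes 3 did (11.1%, near the share of all genes). Tnfaip3, an inhibitor of NF-kB signalling, was the only one of these with regions, 8 shared, 4 post-caerulein alone and 1 untreated alone in 141.1 kb.

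The 1-list regions of a stretch were often of the same list. Within stretches, 548 of 719 successive pairs of 1-list regions (76.2%) came from the same list, 339 from the post-caerulein and 209 from the untreated list, with shared regions allowed between them. The post-caerulein list holds 58.93% of all these regions, so many pairs are of 1 list whatever their order. At least 5 one-list regions were held by 65 stretches, of which 42 had more post-caerulein-alone regions, 20 had more untreated-alone regions and 3 had equal numbers. Regions of a stretch share their surroundings and are not independent, and these counts were not tested.

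**Figure D3:**
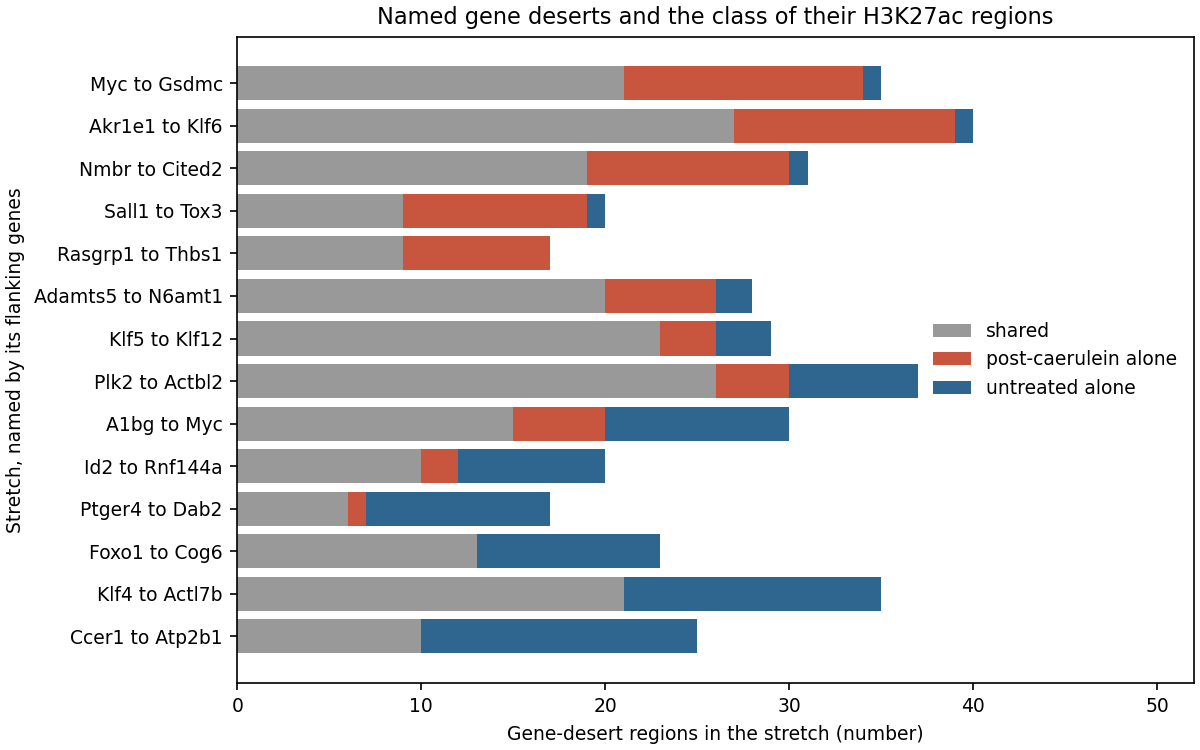
Number of gene-desert regions by class in 14 stretches: the 8 with most regions and the 5 per direction with the largest difference between 1-list classes, where the fifth place was tied and went to Rasgrp1 to Thbs1 (over Aldh8a1 to Sgk1) and Id2 to Rnf144a (over Ubash3b to Gm40514). Untreated-alone regions (blue) make up 15 of 25 regions between Ccer1 and Atp2b1, and post-caerulein-alone regions (red) 13 of 35 between Myc and Gsdmc.

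The deserts on the untreated side were led by that of Ccer1 to Atp2b1 (chromosome 10, 97794927 to 98814629), where Atp2b1 encodes a calcium pump of the plasma membrane and Ccer1 a coiled-coil protein known from germ cells. It held 10 shared, 0 post-caerulein-alone and 15 untreated-alone regions. Covered length was 18.4 kb after caerulein and 60.8 kb without treatment. The shared regions leaned the same way, since 9 of 10 were covered over fewer bases after caerulein, with a median log2 ratio of -0.91. At 98693419 to 98696962 the untreated list covered 3544 bp (score 1241.64) and the post-caerulein list 830 bp (score 67.62). At 98787695 to 98793096 it covered 5402 bp at the tied score of 3100 and the post-caerulein list 2160 bp at 341.47. Most regions lay in the part toward Atp2b1, an end of which was marked in both lists, whereas Ccer1 was unmarked. The untreated-alone scores ran from 50.35 to 1053.24, and 2 were above the list's median of 686.995. These 2 were the region at 98779024 to 98782554, with the nearest post-caerulein row 6.4 kb away, and the one at 98535255 to 98537997 (score 889.53) over the start of Gm34297 printed above, 23.2 kb from such a row.

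The desert of Klf4 to Actl7b (chromosome 4, 55632476 to 56640004) had 21 shared, 0 post-caerulein-alone and 14 untreated-alone regions. Klf4 is a Krüppel-like transcription factor of epithelial differentiation and a reprogramming factor, and Actl7b is an actin-like gene of the testis. The regions covered 60.2 kb after caerulein and 105.1 kb without treatment. Of the shared regions, 15 of 21 were longer in the untreated list. The widest untreated-alone regions lay far from Klf4. There the region at 56385410 to 56392260 (6851 bp, score 2555.25) ended next to a shared region and lay 0.4 kb from a post-caerulein row, and the one at 56417990 to 56423196 (5207 bp, score 1766.66) lay 23.2 kb from one. Beyond them a domain of 21405 bp (56472646 to 56494050, score 3100) was untreated alone, 37.7 kb from the nearest post-caerulein row. It was too wide for the rule and was the only one of 23 such wide desert domains that was not shared. Farther on, the shared region at 56598027 to 56602885 was covered over 4859 bp (score 535.12) in the untreated and 1748 bp (score 85.13) in the post-caerulein list. The 6 regions nearest to Klf4 were all shared.

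**Figure D4:**
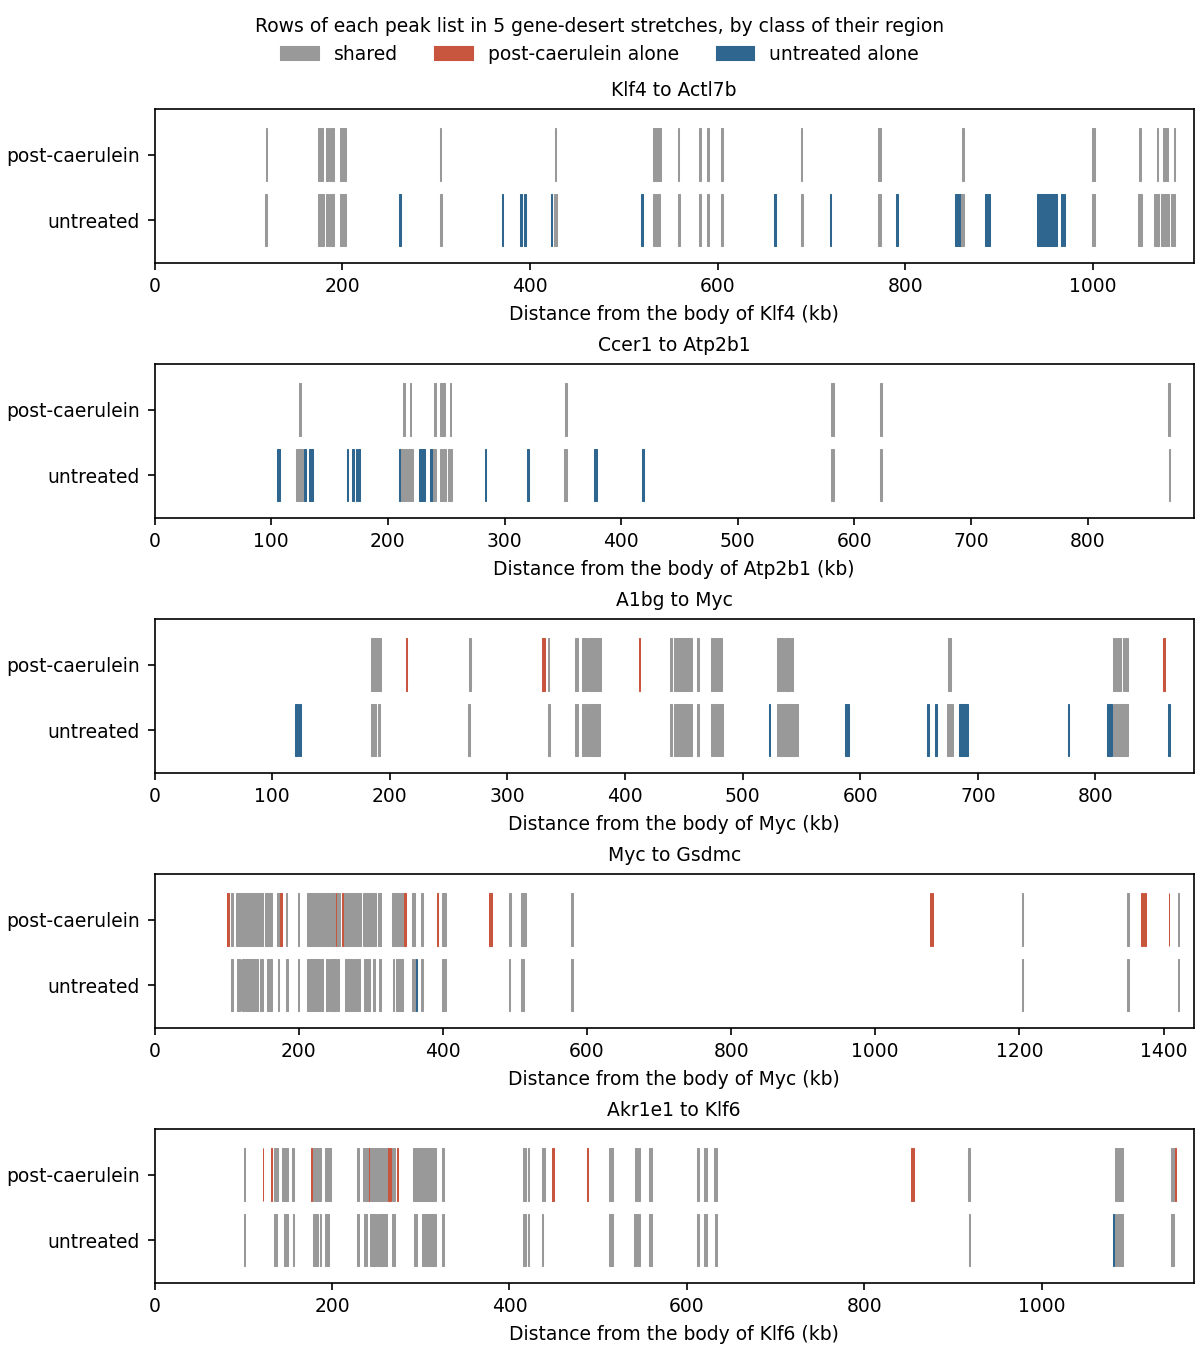
Rows of the untreated (lower track) and post-caerulein (upper track) lists in 5 gene deserts, by distance in kb from the body of Klf4, Atp2b1, Myc (both sides) or Klf6; grey rows belong to shared regions and coloured rows to regions of 1 list, wide domains included. Blue untreated-alone rows stand along most of the Klf4 desert beyond the 6 nearest regions, the domain of 21405 bp in its far part, and red rows stand among dense shared rows near Myc and Klf6.

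Untreated-alone regions also led in 3 further deserts of the rule. Between Foxo1, a forkhead transcription factor held back by insulin signalling, and Cog6, a Golgi protein gene, there were 13 shared, 0 post-caerulein-alone and 10 untreated-alone regions. Covered length there was 56.5 kb after caerulein and 91.7 kb without treatment, and 12 of 13 shared regions were longer in the untreated list. Between Ptger4, the gene of the prostaglandin E receptor EP4, and Dab2, an endocytic adaptor gene, 10 of 17 regions were untreated alone and 1 was post-caerulein alone. All 6 shared regions of that desert were longer without treatment, with a median log2 ratio of -1.0 (post-caerulein over untreated), and covered length was 12.1 kb after caerulein and 35.9 kb without treatment. Its region at 6014776 to 6018942 on chromosome 15 had the most negative log2 ratio of the deserts among regions covered over at least 1 kb in both lists, -2.04 (1012 bp after caerulein, 4167 bp untreated). Beside Id2, an inhibitor of basic helix-loop-helix factors, 8 untreated-alone stood against 2 post-caerulein-alone regions, but the 10 shared regions covered 50.9 kb in both lists. No untreated-alone region between Foxo1 and Cog6 (highest score 591.69) or between Ptger4 and Dab2 (614.31) reached the list's median of 686.995. Beside Id2, 1 did (745.62).

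Myc, which encodes a growth-promoting transcription factor, was flanked by deserts that differed in opposite directions. On the side of Gsdmc, a gasdermin gene, lay 21 shared, 13 post-caerulein-alone and 1 untreated-alone region (chromosome 15, 62090362 to 63675970). The post-caerulein-alone regions were weak, with scores of 59.99 to 413.12, all below the list's median of 527.99. Covered length was 100.9 kb after caerulein and 62.1 kb without treatment, and 213.6 and 152.6 kb with the 5 wide domains included. All 5 domains lay in the part toward Myc, the farthest 329702 bp from it. The one nearest to Myc was 36955 bp wide and consisted of 1 post-caerulein row and 5 untreated rows. On the side of A1bg, a plasma glycoprotein gene, lay 15 shared, 5 post-caerulein-alone and 10 untreated-alone regions (61021271 to 61885340), and covered length was 70.6 kb after caerulein and 101.6 kb without treatment. Of the 15 shared regions on this side, 13 were longer in the untreated list, against 6 of 21 on the other side. The strongest 1-list region on the A1bg side (61171026 to 61175725, 4700 bp, score 2708.04) was untreated alone, but a post-caerulein row lay only 0.6 kb from it. A region of 7177 bp (61293937 to 61301113, score 1896.58) was untreated alone with the nearest post-caerulein row 7.4 kb away. The difference between both sides was not tested.

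The desert with most regions, 40, was that of Akr1e1 to Klf6 (chromosome 13, 4709165 to 5761488). Klf6 encodes an immediate early zinc finger factor and Akr1e1 an aldo-keto reductase. It had 27 shared, 12 post-caerulein-alone and 1 untreated-alone region. Covered length was 131.3 kb after caerulein and 93.1 kb without treatment. The post-caerulein-alone regions were weak, with scores of 51.51 to 215.5, all below the list's median of 527.99. Most of the added length was in shared regions, which covered 114.3 kb after caerulein and 92.2 kb without treatment. At 5561324 to 5570432 the post-caerulein list covered 9109 bp and the untreated list 3552 bp, and 18 of 27 were longer after caerulein. On the other side of Klf6, toward Pitrm1, lay 12 shared, 5 post-caerulein-alone and 2 untreated-alone regions.

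Post-caerulein-alone regions led in 3 more deserts of the rule, none of them with a score above the median of the list. Between Nmbr, the neuromedin B receptor gene, and Cited2, a transcriptional coregulator gene, 11 stood against 1 untreated-alone region among 31. Between the zinc finger gene Sall1 and the HMG-box gene Tox3, 10 stood against 1 among 20. Between Rasgrp1, a Ras activator gene, and Thbs1, the thrombospondin-1 gene, there were 8 post-caerulein-alone and 0 untreated-alone regions, and all 9 shared regions were longer after caerulein. Covered length in that desert was 49.1 kb after caerulein and 23.2 kb without treatment. Its strongest region (117798528 to 117807223 on chromosome 2) was covered over 8696 bp and 5793 bp.

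The 3 remaining deserts with most regions differed less. Between Klf5, a growth factor-responsive regulator of epithelia, and Klf12 lay 23 shared regions with 3 of each 1-list class in only 352.8 kb, and covered length was 129.0 kb after caerulein and 126.7 kb without treatment. Between Plk2, a polo-like kinase gene, and Actbl2, an actin gene, 26 shared regions stood beside 4 post-caerulein-alone and 7 untreated-alone ones, and covered length was 113.3 kb and 121.2 kb. Between Adamts5, a metalloprotease gene, and N6amt1, 20 shared regions stood beside 6 post-caerulein-alone and 2 untreated-alone ones, and covered length was 86.9 kb after caerulein and 71.4 kb without treatment.

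Beside duct and progenitor regulators, 7 deserts held more post-caerulein-alone regions, several of them by a single region, 2 held more untreated-alone regions and 5 held equal numbers. Of all 1-list desert regions, 58.93% were post-caerulein alone, so a lean to that side is not particular to these deserts. At the ductal regulator Sox9, the desert toward Slc39a11 held 5 shared, 2 post-caerulein-alone and 1 untreated-alone region and a shared domain of 45442 bp, the widest of the 23 desert domains. The progenitor factor gene Sox4 had 6 shared, 5 post-caerulein-alone and 0 untreated-alone regions toward Prl5a1. Foxa2, a pioneer factor gene of foregut organs, had 5 shared, 1 post-caerulein-alone and 4 untreated-alone regions toward Pax1, and the Notch target Hes1 had 7, 0 and 3 toward Opa1. Nkx6-1 and Onecut1, genes of pancreatic progenitor factors, each had 3 post-caerulein-alone and 0 untreated-alone regions. The post-caerulein-alone regions beside Sox4, Nkx6-1 and Onecut1 had highest scores of 278.63, 366.2 and 135.16, all below the list's median of 527.99. Over the whole list of 24 genes there were 61 shared, 21 post-caerulein-alone and 12 untreated-alone regions in the flanking deserts, so that 35.1% were in 1 list alone, against 42.92% of all desert regions.

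Single strong regions of 1 list were few. Among the 5 highest-scored ones after caerulein were a region between Usp25 and Cxadr (score 1820.62), 1 over Mir802 (1712.01), 1 between Tmtc4 and Nalcn (1663.04) and 1 between the homeobox genes Irx2 and Irx4 (1328.16), the last 460.9 kb from an untreated row. In untreated spheroids the highest-scored one lay between Pcmtd1 and Sntg1 (chromosome 1, 7494835 to 7504827; 9993 bp, score 3100), 95.8 kb from any post-caerulein row. Those of A1bg to Myc and Klf4 to Actl7b are given above, and the others lay between Ubash3b and Gm40514 (2653.16; 96.6 kb from a post-caerulein row) and between Serpini1 and Golim4 (2404.85). Among shared regions, a large difference in covered length was found 267465 bp from Maf, a basic leucine zipper factor gene. There 10140 bp were covered after caerulein (score 1888.51) and 2238 bp without treatment (score 309.2). Between Egflam and Gdnf, the gene of a neurotrophic factor, the covered lengths were 4294 and 1024 bp. In the other direction, a region between A1bg and Myc was covered over 1700 bp after caerulein and 6142 bp without treatment, and 1 between Exoc2 and the forkhead gene Foxq1 over 1880 and 5795 bp. The desert from Maf to Dynlrb2 held 1 shared, 5 post-caerulein-alone and 1 untreated-alone region.

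Of 1136 autosomal microRNA genes in the annotation, 112 lay in the stretches, 39 of them between Rtl1 and Dio3. A region lay within 5 kb of 12 and covered 2, Mir205 and Mir802, and a domain too wide for the rule covered Mir125b-1. Mir205, an epithelial microRNA that targets Zeb1 and Zeb2, lay at the edge of a shared region of 7947 bp (chromosome 1, 193507333 to 193515279). The untreated list covered all 7947 bp in 1 row at score 3100, and the post-caerulein list covered 4387 bp in 2 rows with a highest score of 373.96. Only the untreated row reached the microRNA gene itself. The next region, at 193540303 to 193549014, covered 8712 bp at score 3100 in the untreated and 5064 bp at 1300.52 in the post-caerulein list. The desert, between Camk1g and Plxna2, had 2 post-caerulein-alone and 5 untreated-alone regions and was covered over 36.3 kb after caerulein and 45.2 kb without treatment, although 6 of its 10 shared regions were longer after caerulein.

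Mir802, a microRNA studied in liver and pancreas, lay under a post-caerulein-alone region of 6128 bp (chromosome 16, 93364531 to 93370658). The nearest untreated row was 163.8 kb away. The desert of Runx1 to Setd4 around it held 6 shared, 7 post-caerulein-alone and 0 untreated-alone regions, and covered length was 35.5 kb after caerulein and 17.0 kb without treatment. Runx1, a gene of a transcription factor of blood and epithelia, had no row within 1 kb of an end of its body in either list. Starts inside the gene were not examined. The other post-caerulein-alone regions near Mir802 were weaker, with scores of 340.26 and 238.72.

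**Figure D5:**
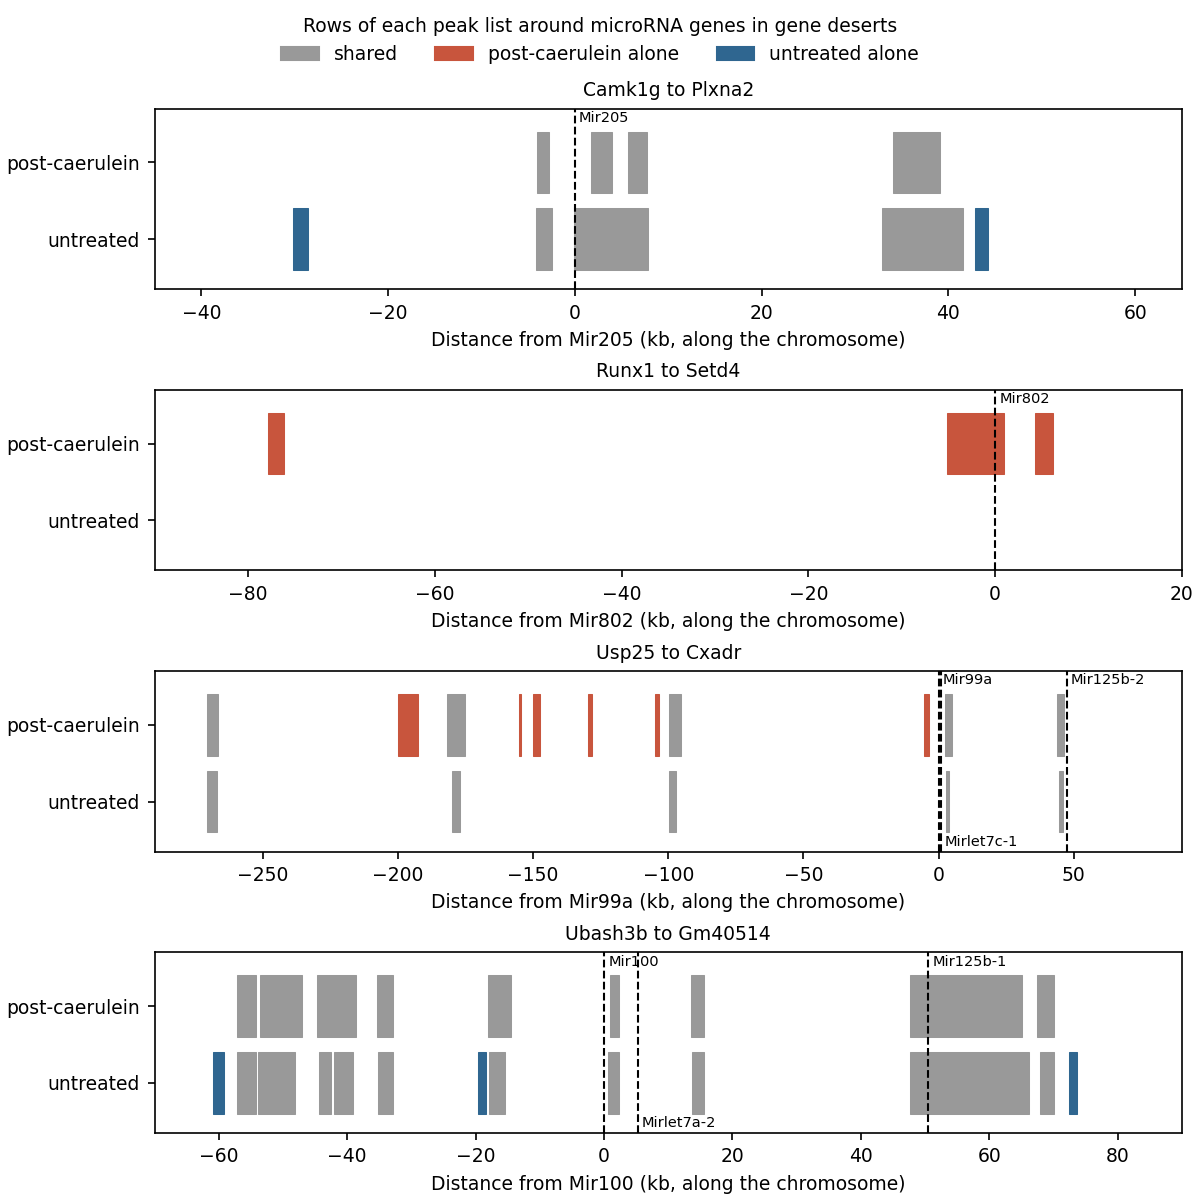
Rows of the untreated (lower track) and post-caerulein (upper track) lists around Mir205, Mir802, Mir99a and Mir100, by distance along the chromosome in kb; dashed lines mark microRNA genes and colours the class of the region. Only untreated rows reach Mir205, and only post-caerulein rows lie in the plotted window around Mir802. Around Mir99a, shared regions covered over a greater length after caerulein stand beside post-caerulein-alone regions. Around Mir100, shared regions stand beside untreated-alone ones.

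The paralogous clusters of miR-99a, let-7c and miR-125b-2 on chromosome 16 and of miR-100, let-7a-2 and miR-125b-1 on chromosome 9 differed from each other. The let-7 family represses growth and developmental timing genes. Between Usp25, a deubiquitinase gene, and Cxadr, a virus receptor and junction gene, lay 5 shared, 7 post-caerulein-alone and 0 untreated-alone regions. Covered length was 35.8 kb after caerulein and 11.8 kb without treatment, and all 5 shared regions were longer after caerulein, with a median log2 ratio of 0.85. The region over the start of Mir99ahg was covered over 4089 bp after caerulein and 3479 bp without treatment. The region beside Mir99a and Mirlet7c-1 (77601320 to 77603923) was covered over 2604 bp (score 557.28) after caerulein and 1170 bp (score 108.97) without treatment. The region 1006 bp from Mir125b-2 was covered over 2688 bp (score 1512.8) and 1699 bp (score 387.5).

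On chromosome 9, between Ubash3b and Gm40514, lay 10 shared, 1 post-caerulein-alone and 7 untreated-alone regions. The start of Mir100hg lay in a shared region covered over 2997 bp after caerulein and 2966 bp without treatment. Mir125b-1 lay in a shared domain covered over 17521 bp and 18603 bp at the tied score of 3100 in both lists. The region beside Mir100 and Mirlet7a-2 was covered over 1447 bp (score 123.46) and 1722 bp (score 189.87). Shared regions here were longer after caerulein in 9 of 10 cases, but by a median log2 ratio of only 0.14. The difference between the clusters was not tested.

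Annotated noncoding genes lay at part of the regions. The shares below have no counterpart here for regions nearer to genes or for desert sequence without regions. They therefore describe the regions and show no preference for noncoding genes. Of the 2689, 814 (30.27%) overlapped the body of a noncoding gene or pseudogene, 323 (12.01%, 10.81 to 13.3) had such a gene ending or starting within 1 kb, and 278 lay more than 100 kb from every annotated gene of any kind. A lncRNA start lay under 113 regions (4.202%, 3.476 to 5.031), with 5.342% of shared, 2.794% of post-caerulein-alone and 2.532% of untreated-alone regions. The share rose with width, from 1.737% under 1.5 kb to 8.64% at 4 to 15 kb. At like width the order of the classes varied. For shared, post-caerulein-alone and untreated-alone regions it was 2.138%, 4.472% and 2.793% at 1.5 to 2.5 kb. At 2.5 to 4 kb it was 5.306%, 1.754% and 3.279%. Some of the strongest shared regions held such starts or ends, among them those of Gm34061 and Gm41230 between Klf5 and Klf12 (14392 bp, score 3100 in both lists) and of 9130015A21Rik between Ahr and Agr3 (11863 bp). 3110009F21Rik had the region of 4790 bp (score 1184.56), post-caerulein alone, named above, and the desert around it, Rtl1 to Dio3, held 5 shared, 6 post-caerulein-alone and 0 untreated-alone regions.

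The base composition of lncRNA starts under a region differed somewhat from that of desert starts without one, but was close to that of all lncRNA starts. Over 142 start windows of 115 genes under desert regions the median GC content was 49.3% with 4 CG dinucleotides, against 44.7% and 3 over 1849 desert starts under no region. Over all 11311 lncRNA windows the medians were 48.3% and 4. The letters CCCCTCC, on either strand, were in 18.31% (12.32 to 25.67) of windows under regions, 9.302% (8.017 to 10.72) of desert windows under none and 14.41% of all 11311 lncRNA windows. GGGCGG, the core of the Sp and Klf motif, was in 10.56% (6.034 to 16.82), 5.138% (4.176 to 6.245) and 16.34%. TGANTCA, the AP-1 motif, was in 14.79% (9.394 to 21.71), 9.897% (8.573 to 11.35) and 9.248%. CCGGAAG, an ETS motif, was in 4.93% (2.005 to 9.893), 1.677% (1.142 to 2.371) and 3.908%. The other motifs searched were the forkhead letters TGTTTAC, a further ETS motif AGGAAGT, the nuclear receptor motif TCAAGGTCA, the HNF1 letters GTTAAT, the GATA letters AGATAA, the TEAD letters GGAATG, the palindrome TTGCGCAA of C/EBP factors and the E-box CACGTG. The nuclear receptor and C/EBP letters were in 0 of 142 windows under regions (upper limit 2.564%) and in 0.649% and 0 of the 1849 desert windows under none. The others were in 7.042% to 20.42%, against 4.489% to 17.85% of desert windows under none. A window with more G and C holds the GC-rich letters more often, and the motifs were not matched on composition. These matches describe letters in the windows, not bound factors.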

How the data were processed

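H3K27ac was measured by chromatin immunoprecipitation and sequencing in 1 untreated and 1 post-caerulein library. Among tools, MACS 1.4, Bowtie2 2.2.6, Trimmomatic 0.38 and SAMtools are listed in the submitters' processing notes, and mm10 and GRCm38 as builds. Each deposited list gives peak positions and a score, per the authors' files, on a scale (50.0 to 3233.06) that no header defines and at whose value of 3100 many rows tie (8322 untreated and 5778 post-caerulein). The control and options given to the caller are not given in the sources used here. The lists hold no read counts, so the depth is unknown and no interval covers it.

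Autosomal rows (36846 untreated and 37924 post-caerulein) were merged at an overlap of at least 1 bp, and distances were taken to 20665 protein-coding genes of RefSeq GRCm38.p6 (pandas 2.3.3). Merging and distances were checked against bedtools 2.31.1, and all 41416 regions were identical. They were also tested on simulated data. Shares carry exact 95% intervals (scipy 1.17.1). Regions, stretches and genes were named by rank (score, width, number, ratio) and by membership of gene lists. The members and lists were chosen with earlier results of these data known, and the stretch alternatives, lncRNA start windows, microRNA tables and distances to the other list were added after seeing the data. No genome sequence was used, so the planned composition and motif search over whole regions was not run and start windows were used instead. The input library was not analysed here. A region of the post-caerulein list is not reported here.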

Additional observations from a re-analysis of the deposited data

How the results depend on the processing

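The main values were 2689 regions, 42.9% in 1 list alone, 58.9% of these post-caerulein, and a 1-list share 14.4 percentage points above that of nearer regions. In the same order, they were 947, 6.1%, 36.2% and 3.9 with at least 1 row at or above its list's median score, so that the balance turned to the untreated side. They were 1765, 21.4%, 51.6% and 10.4 with the lowest score quartile as the limit. They were 1202, 47.8%, 53.7% and 18.9 beyond 200 kb, and 278, 51.4%, 54.5% and 22.2 beyond 100 kb of every annotated gene. Beyond 50 kb, 4658 regions had 40.0% in 1 list and a difference of 11.9. Equal numbers of rows gave 55.6% post-caerulein. Each limit changes which regions are counted; other causes were not tested. Without a width limit, with merging up to 1 kb apart and with a 50% overlap the share in 1 list was 42.6%, 41.0% and 43.0%.

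For the 10 stretches named for their difference, chosen after seeing the data, 79 of 90 values over 9 settings kept their direction, 11 were 0 and 0 reversed. These counts are no check of the direction. The stretches were picked for it, held few or no regions of the opposing class, and each setting used the same lists, so a reversal could hardly occur. At the median score limit the difference was 0 in 7 stretches and remained on the untreated side for Ccer1 to Atp2b1, Klf4 to Actl7b and Id2 to Rnf144a. No paired analysis was possible because a condition has only 1 library, nor could any library be omitted. Unknown depth limits each 1-list count, since most such regions have low scores.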
